A study of Mus musculus with 4 samples.

Results

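The 30 genes described here encode enzymes of cholesterol and fatty acid synthesis and the proteins that regulate them. They were chosen by symbol from a fixed list of lipid synthesis genes, and all 30 were found among the 32285 genes of the count tables. Of these, 18 act in the cholesterol pathway (7 from acetyl-CoA to farnesyl diphosphate and 11 from squalene onwards), 7 in fatty acid synthesis, elongation and desaturation, 4 regulate both pathways and 1, Stard4, carries sterol between membranes. Levels are given in CPM, a gene's UMIs (unique molecular identifiers, 1 for each captured transcript) scaled to a common total for the cells summed. They were followed in astrocytes, the oligodendrocyte lineage and neurons of 4 libraries.

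The libraries hold tdTomato-positive cells sorted from C57BL/6 mouse forebrain at postnatal day 5. All mice carried NestinCreERT2, a tamoxifen-inducible Cre under the Nestin promoter of neural progenitors, and the tdTomato reporter, and received tamoxifen in mid-gestation. Control libraries (replicates 1 and 2) were Chd8+/+ and mutant libraries (replicates 1 and 2) carried 1 floxed Chd8 allele, so that only cells with recombination, and their descendants, lose a copy. Cells of several mice were pooled, and no label ties a cell to a mouse.

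Cholesterol synthesis runs from acetyl-CoA through the mevalonate pathway to squalene and lanosterol, then through demethylation and double-bond shifts to cholesterol. The brain makes its own cholesterol, because lipoproteins of the blood do not cross the blood-brain barrier. Astrocytes are known to supply sterol and fatty acids to neurons, and oligodendrocytes need large amounts of both for myelin. The transcription factors SREBP2 (Srebf2) and SREBP1 (Srebf1) switch on sterol and fatty acid genes, are escorted from the endoplasmic reticulum by Scap, and are held there by Insig1 when sterol is plentiful.

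The promoters of 4 members are shown, since the levels of Hmgcs1, Msmo1 and Tm7sf2 differed widely between cell types while that of Acat2 differed little, a choice made with these values known. The letters are the 250 bases before the start site that RefSeq gives (build GRCm38.p6), on the strand of the gene. That site is not always the outermost start of the gene model whose coordinates are given further on, so that the Tm7sf2 stretch lies within that model and those of Msmo1 and Acat2 overlap its end. Capitals mark a CCAAT box (CCAAT or its reverse complement ATTGG) and, in Hmgcs1 alone, a sterol regulatory element core (TCACNCCAC). They lie at chr13:119690101-119690350 on the plus strand, chr8:64733579-64733828 on the minus strand, chr19:6067851-6068100 on the minus strand and chr17:12960726-12960975 on the minus strand, respectively.
Hmgcs1: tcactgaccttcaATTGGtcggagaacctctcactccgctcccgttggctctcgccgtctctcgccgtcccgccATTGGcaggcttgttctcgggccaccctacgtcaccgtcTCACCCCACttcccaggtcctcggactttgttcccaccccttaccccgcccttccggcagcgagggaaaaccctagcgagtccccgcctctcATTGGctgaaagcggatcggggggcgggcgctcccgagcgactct
Msmo1: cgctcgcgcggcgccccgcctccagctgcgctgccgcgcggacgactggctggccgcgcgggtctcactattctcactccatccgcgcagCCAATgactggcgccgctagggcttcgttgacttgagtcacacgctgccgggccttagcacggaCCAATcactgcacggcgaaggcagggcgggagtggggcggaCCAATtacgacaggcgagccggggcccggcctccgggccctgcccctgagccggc
Tm7sf2: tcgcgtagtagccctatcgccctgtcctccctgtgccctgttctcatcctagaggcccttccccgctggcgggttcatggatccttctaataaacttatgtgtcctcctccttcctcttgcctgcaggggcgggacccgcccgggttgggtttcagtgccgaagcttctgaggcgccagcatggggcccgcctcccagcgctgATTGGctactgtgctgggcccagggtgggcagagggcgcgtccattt
Acat2: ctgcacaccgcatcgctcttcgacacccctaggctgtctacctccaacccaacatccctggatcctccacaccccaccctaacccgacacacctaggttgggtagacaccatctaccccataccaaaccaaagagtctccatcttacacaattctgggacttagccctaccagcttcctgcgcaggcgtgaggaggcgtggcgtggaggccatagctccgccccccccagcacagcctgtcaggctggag
The table held a promoter for 23 of the 30 members. On either strand, the CCAAT box was found in 18 of these 23, against 37.5% of 27025 genes. The GC box GGGCGG was found in 19 of 23, against 35.4%, and TCACNCCAC in 1 of 23, against 1.22%. The 4 stretches shown do not stand for all members. Ebp, whose highest type mean was 1.68 times its lowest, had a CCAAT box. Fads2, at 10.7 times, had a promoter in the table without one. A link between the box and the levels was not tested. None of these motifs contains another, and a match describes letters and not binding.

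Before the results, the libraries themselves differed. They held 46274374 to 79328841 UMIs over 6107 to 7279 barcodes, and 17623 cells passed the filters (5710 and 2973 in control replicates 1 and 2, and 5659 and 3281 in mutant replicates 1 and 2). Replicate 2 libraries had more barcodes over the mitochondrial limit (44.0% and 37.8%, against 9.38% and 12.3%) and matrix headers naming another software version than replicate 1. Then 2 clusters of astrocytes were almost entirely of 1 replicate number (865, 5, 861 and 5 cells, and 33, 580, 47 and 588 cells, in the order control replicate 1, control replicate 2, mutant replicate 1, mutant replicate 2). Such clusters were not limited to astrocytes. In the same order, an OPC cluster held 166, 5, 297 and 7 cells and an excitatory cluster 182, 12, 78 and 11. Libraries shared at most 0.303% of their barcodes. The replicate number and the software version cannot be told apart. Chd8 was counted at 61.7, 89.8, 68.7 and 94.9 CPM in that order, so the libraries labelled mutant were not lower. The floxed exons are internal to the gene, while these libraries are made from the 3′ end of transcripts. Which of these counts lie outside the deleted part was not tested, so this gene does not check the labels.

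Cell types were named from fixed markers after clustering without the 30 genes or their companions. The astrocyte marker sum was 11804 to 13045 CPM in astrocytes, and those of OPCs (oligodendrocyte precursor cells), oligodendrocytes, excitatory neurons and inhibitory neurons were 6392 to 8748, 8056 to 16266, 1387 to 1885 and 4364 to 4709.8 CPM in their own types. The markers of committed precursors summed to 5574 to 6263 CPM in oligodendrocytes. The labels call the cells neuronal, while astrocytes outnumbered neurons here and 362 microglia and 166 endothelial cells were found too. The oligodendrocyte markers were not the highest-scoring list in the cluster named oligodendrocyte. The name rests on 4 of them among its 10 leading genes. Enpp6 and Bcas1, genes of newly formed cells, and Bmp4, all 3 on the list of committed precursors, were among these genes too. A separate class of committed precursors was not found, so such cells were not told apart from oligodendrocytes here. The sums rest on 5124 astrocytes, 2417 OPCs, 569 oligodendrocytes, 1494 excitatory and 2944 inhibitory neurons, and the smallest, oligodendrocytes of control replicate 2, on 44 cells.

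Astrocytes had the highest summed level of the 30 genes. They held 6135, 7527, 6450.4 and 7315 CPM of these genes in control replicates 1 and 2 and mutant replicates 1 and 2, the order used throughout. OPCs held 2707, 4281, 2723 and 3762, and oligodendrocytes 3091, 3791, 2914 and 3639.7. Excitatory neurons held 1547, 1786, 1419.7 and 1714, and inhibitory neurons 1047, 1506, 1002 and 1501. All 4 astrocyte values lay above all values of the other 4 types, and all neuronal values lay below all values of the oligodendrocyte lineage. Dividing astrocytes (3925 to 5706) lay below every non-dividing astrocyte value, whereas dividing OPCs (2674 to 4132) overlapped OPCs. The 5 types without the dividing classes were then ranked by mean level. Excitatory neurons had not been split by division, and the dividing-cell markers summed to 764 to 1684 CPM in them. Of the 30 genes, 25 were highest in astrocytes, 19 of them in each of the 4 libraries. Lss was highest there in 1 library and Fdps, Hsd17b7 and Acaca in 2. A further 4 were highest in oligodendrocytes and 1 in OPCs, and 26 were lowest in inhibitory neurons and 4 in excitatory neurons. Of those highest in oligodendrocytes, Mvd and Ebp were so in each of the 4 libraries, Acat2 in 3 and Fasn in 2. Elovl6 was highest in OPCs in each of the 4. How often all genes rank in these ways was not counted, so the ranks only describe the members.

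**Figure D1:**
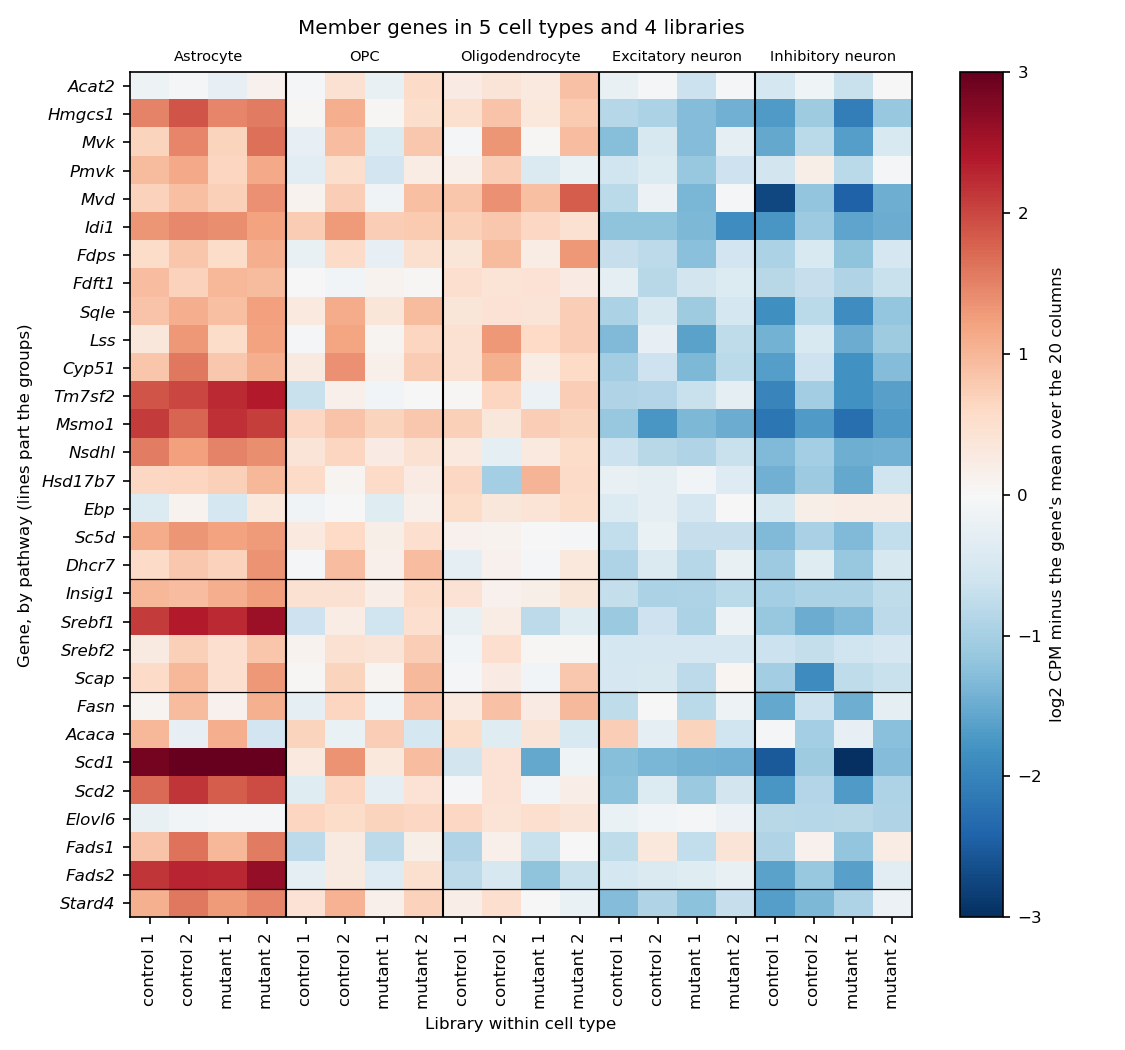
Level of each of the 30 genes (rows, grouped by pathway) in the 4 libraries of 5 cell types (columns), as log2 CPM minus the mean of that gene over the 20 columns. Astrocyte columns are red for most genes and neuronal columns blue, while Ebp, Acat2 and Elovl6 do not follow this order; the colour scale ends at 3, so Scd1 in astrocytes is at its limit.

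In the oligodendrocyte lineage the sum of the cholesterol enzymes lay nearer to that of astrocytes than did the sum of the fatty acid enzymes, a description with no test. The 18 cholesterol enzymes summed to 3317 ± 274 (SD, n = 4) CPM in astrocytes, 1945 ± 494 (SD, n = 4) in OPCs and 2061 ± 281 (SD, n = 4) in oligodendrocytes. The 7 fatty acid enzymes summed to 3104 ± 355 (SD, n = 4), 1143 ± 255 (SD, n = 4) and 1061 ± 129 (SD, n = 4), respectively. Scd2 was the most counted of the 7 in astrocytes, and without it the other 6 summed to 1025 to 1274 CPM in astrocytes and 444 to 521 in oligodendrocytes. Fasn, Acaca and Elovl6 had means of 118.6, 125.2 and 92.1 CPM in astrocytes, 97.2, 107 and 152 in OPCs and 119.4, 95.1 and 138 in oligodendrocytes. The lower fatty acid sums of the lineage thus lay mainly in Scd1, Scd2, Fads1 and Fads2. In excitatory and inhibitory neurons the cholesterol enzymes summed to 649 to 847 and 496 to 831 CPM.

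**Figure D2:**
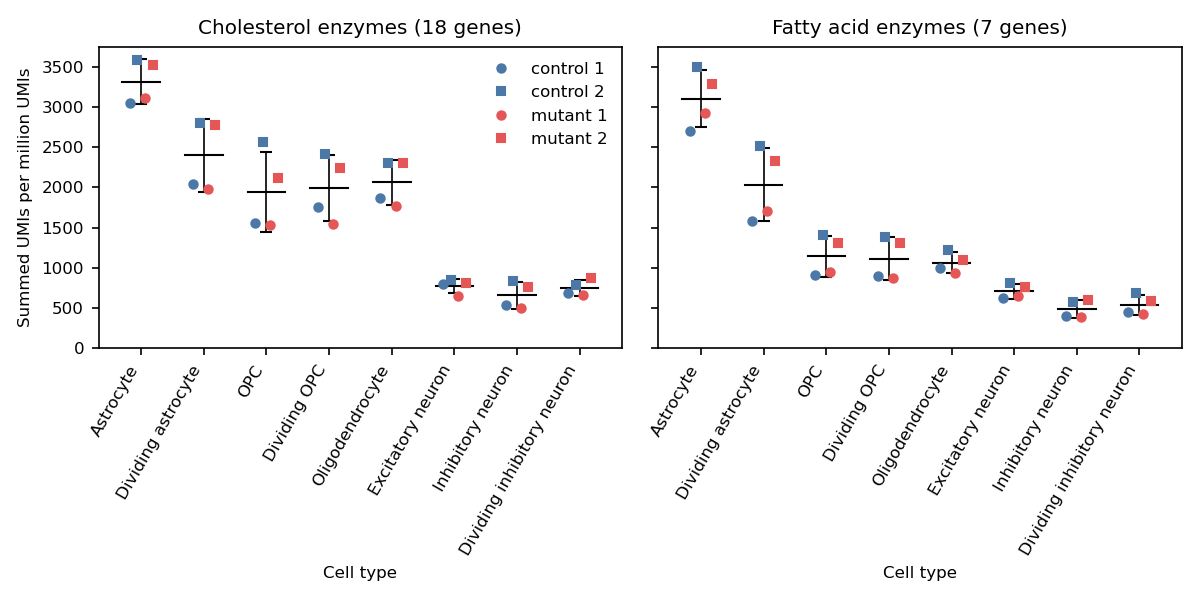
Summed level in CPM of the 18 cholesterol enzymes (left) and the 7 fatty acid enzymes (right) in 8 cell types, with a point for each library, a line at the mean and bars of 1 SD over the 4 libraries. Squares (replicate 2) lie above circles (replicate 1) of the same colour in every type, and astrocytes stand highest in both panels.

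Astrocytes were compared with neurons inside each library, by edgeR's quasi-likelihood test on UMIs summed per library and type, with library as a covariate. A gene was called at a Benjamini-Hochberg adjusted p under 0.05 over 15638 genes and an absolute log2 change of at least 1. Against inhibitory neurons, 27 of the 30 genes were called higher in astrocytes and 0 lower, where 24.6% of all genes were called higher and 17.5% lower. The median log2 change was 2.22 over the members and 0.02 over all genes. For 27 members every astrocyte library lay above every inhibitory neuron library, as it did for 25.2% of all genes. Against excitatory neurons, 26 were called higher and 0 lower (20.3% and 15.9% of all genes), with medians of 1.93 and 0.00, and 26 did not overlap (20.8%). At the adjusted p alone, 29 members were higher against inhibitory neurons and 28 against excitatory neurons, with 0 lower in both, where 37.5% and 34% of all genes were higher and 35.8% and 33.9% lower. The 2 comparisons share the astrocyte sums.

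Hmgcs1 of the early and Sqle of the late pathway were both higher in astrocytes than in either type of neuron. Hmgcs1, which makes HMG-CoA (chr13:119690379-119708260, plus strand, mm10), stood at 822, 1085, 811 and 870.2 CPM in astrocytes. In inhibitory neurons it stood at 89.9, 141, 69.5 and 133 CPM, and in excitatory neurons at 162, 152, 119 and 108. No library of either neuronal type reached an astrocyte value, and the log2 change was 3.19 ± 0.15 (SE) against inhibitory neurons (edgeR adjusted p = 1.4e-22) and 2.85 ± 0.15 against excitatory neurons (edgeR adjusted p = 3.5e-21). Sqle, the squalene epoxidase that is a rate-limiting step (chr15:59315077-59331192, plus strand), stood at 165, 197, 171 and 216 CPM in astrocytes and 25.6, 52.02, 25.1 and 40.9 in inhibitory neurons. Its groups did not overlap, with a log2 change of 2.56 ± 0.12 (edgeR adjusted p = 1.2e-22). In excitatory neurons it stood at 47.6, 65.8, 43.6 and 63.3 CPM.

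Among the later sterol enzymes, Msmo1, a methylsterol oxidase (chr8:64718139-64733792, minus strand), stood at 498, 389.7, 531 and 489 CPM in astrocytes. It stood at 25.9, 35.9, 24.3 and 35.8 CPM in inhibitory neurons and 52.6, 34.9, 45.6 and 41.6 in excitatory neurons. The astrocyte level was 17.5 times that of inhibitory neurons (log2 change 4.13 ± 0.15, edgeR adjusted p = 3.5e-26) and 11.9 times that of excitatory neurons (log2 change 3.57 ± 0.14). Tm7sf2, a sterol reductase (chr19:6062821-6068373, minus strand), stood at 52.6, 56.7, 67.1 and 73.6 CPM in astrocytes and 3.61, 6.81, 4.01 and 4.54 in inhibitory neurons. Excitatory neurons stood at 7.59, 7.72, 8.87 and 11.7 CPM. The inhibitory values rest on 33, 11, 32 and 8 UMIs, and the log2 change was 3.87 ± 0.18 (edgeR adjusted p = 9.3e-23). Tm7sf2 overlaps another gene, Vps51, on the same strand, and how this bears on its counts was not tested.

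The desaturases gave the largest differences of the fatty acid enzymes. Scd1, a stearoyl-CoA desaturase (chr19:44394455-44407879, minus strand), stood at 132, 178, 149 and 156 CPM in astrocytes. In excitatory neurons it stood at 7.45, 6.99, 6.84 and 6.70 CPM, and in inhibitory neurons at 3.18, 8.67, 2.25 and 7.38, the latter from 29, 14, 18 and 13 UMIs. The log2 changes were 5.25 ± 0.22 against inhibitory neurons (edgeR adjusted p = 2.7e-24) and 4.52 ± 0.20 against excitatory neurons (edgeR adjusted p = 2.1e-23).

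Scd2, its paralog (chr19:44293674-44306864, plus strand), was counted far more often, at 1678, 2307, 1818 and 2017 CPM in astrocytes. It remained at 223, 389.7, 241 and 356 CPM in excitatory and 154, 284, 160.0 and 275 in inhibitory neurons, so the log2 changes were smaller, at 2.88 ± 0.13 and 3.31 ± 0.13. Fads2, the delta-6 desaturase (chr19:10062765-10101746, minus strand), stood at 400.2, 440.4, 433 and 561 CPM in astrocytes and 29.7, 40.9, 28.9 and 72.1 in inhibitory neurons (log2 change 3.61 ± 0.12). Reads that fit both paralogs could not be placed by these counts.

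The entry enzymes of fatty acid synthesis differed less. Fasn, the fatty acid synthase, stood at 81.3, 148, 84.2 and 161 CPM in astrocytes and 26.4, 48.9, 27.6 and 62.5 in inhibitory neurons (log2 change 1.64 ± 0.10, edgeR adjusted p = 2.6e-18). Acaca, the acetyl-CoA carboxylase that makes malonyl-CoA, stood at 178, 74.6, 188 and 60.1 CPM in astrocytes, 84.9, 43.97, 74.8 and 37.5 in inhibitory and 148, 72.1, 140.2 and 58.7 in excitatory neurons. Its groups overlapped, its level was higher in replicate 1 than in replicate 2 in every type, and within libraries the log2 change was 1.09 ± 0.11 against inhibitory and 0.35 ± 0.10 against excitatory neurons.

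The regulators parted as well. Srebf1 stood at 67.8, 81.4, 74.5 and 93.5 CPM in astrocytes, 7.31, 10.3, 8.13 and 14.1 in excitatory and 7.12, 5.57, 6.26 and 9.09 in inhibitory neurons. The log2 change was 3.45 ± 0.19 against inhibitory neurons (edgeR adjusted p = 2.7e-20). Srebf2 stood at 108, 145, 127 and 157 CPM in astrocytes and 56.9, 53.9, 59.00 and 62.5 in inhibitory neurons, a log2 change of 1.25 ± 0.12. In excitatory neurons Srebf2 stood at 61.6, 62.9, 62.8 and 62.00 CPM, a narrow range. Scap and Insig1 stood at 29.4 to 50.7 and 127 to 158 CPM in astrocytes, against 5.57 to 13.1 and 33.2 to 39.7 in inhibitory neurons, with log2 changes of 1.78 ± 0.16 and 2.06 ± 0.11. All 4 were also called against excitatory neurons, where Scap stood at 14.6, 14.7, 12.01 and 21.4 CPM and Insig1 at 40.97, 34.9, 35.5 and 38.2 CPM. The lowest inhibitory values of Srebf1 and Scap, both in control replicate 2, rest on few UMIs. Within libraries the Scap log2 change against inhibitory neurons ran from 1.27 to 2.80.

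The other 14 members called against inhibitory neurons were Mvk, Pmvk, Mvd, Idi1 and Fdps of the early pathway, Fdft1, Lss, Cyp51, Nsdhl, Hsd17b7, Sc5d and Dhcr7 of the late pathway, Fads1 and Stard4. Their log2 changes ran from 1.38 ± 0.12 for Pmvk to 3.04 ± 0.17 for Mvd. Idi1, the isomerase of the first isoprenoid units, gave 2.94 ± 0.11 and was also among the larger differences against excitatory neurons (2.86 ± 0.10). Lss, which closes squalene epoxide into lanosterol, stood at 33.2 to 64.4 CPM in astrocytes and 9.39 to 19.2 in inhibitory neurons. Stard4 stood at 36.2 to 51.6 CPM in astrocytes and 5.48 to 15.3 in inhibitory neurons.

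Ebp, Acat2 and Elovl6 were not called against inhibitory neurons, and Acaca joined them against excitatory neurons. Ebp, the sterol isomerase, gave -0.12 ± 0.16 (edgeR adjusted p = 0.49), Acat2, the cytosolic thiolase, 0.36 ± 0.11 and Elovl6, a fatty acid elongase, 0.85 ± 0.15. Against excitatory neurons Elovl6 gave 0.17 ± 0.14 (edgeR adjusted p = 0.28), which turned to -0.38 and passed the adjusted p when a cluster led by Eomes, a gene of excitatory precursors, was left out, an alternative chosen after seeing the data. Acat2 has a close paralog, Acat3, so its count is uncertain.

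Astrocyte markers were counted in the neuronal sums too, and whether this RNA came from other cells or from the cells themselves was not tested. The 10 astrocyte markers, none of them at 0, summed to 438 to 602 CPM in inhibitory and 789.6 to 1171 in excitatory neurons, which is 4.11% and 8.28% of their mean in astrocytes. Scd1 in inhibitory neurons was 1.51% to 4.88% of its astrocyte level in the same library and in excitatory neurons 3.93% to 5.64%, so it lay below the astrocyte markers in excitatory neurons and around them in inhibitory neurons, and no neuronal expression is read from these counts. Hmgcs1 (8.58% to 15.3% in inhibitory neurons) and Srebf2 (37.3% to 52.9%) lay above the astrocyte markers. Msmo1 lay nearer to them, at 4.58% to 9.22% in inhibitory and 8.49% to 10.6% in excitatory neurons. In inhibitory neurons Tm7sf2 stood at 5.98% to 12.02%, Fads2 at 6.69% to 12.9% and Srebf1 at 6.85% to 10.5%. For these and the other members the part of such RNA in the neuronal levels, and so in the fold differences, was not tested. For summed cells of a type, fewer expressing cells and less RNA per cell cannot be told apart.

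OPCs were compared with astrocytes in the same fit. Of the 30 genes, 13 were called lower in OPCs and 0 higher, where 15.8% of all genes were called lower and 13.1% higher. The members' median log2 change was -0.81, against 0.01 over all genes. At an adjusted p under 0.05 without a limit on size, 27 were lower and 1 higher (30.5% and 30.7% of all genes). For 16 members no libraries overlapped, 15 of them lower (16.3% of all genes lower, 21.8% higher). Without TMM scaling the median of all genes was 0.19 here and -0.14 between astrocytes and excitatory neurons, and the members' medians were -0.63 and 1.79. In OPCs 9 members were then called lower (2155 of all genes). In the control libraries alone 10 were (2135 of all genes), and in the mutant libraries alone 15 (2372), with 0 higher in each.

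The 5 largest differences were those of Srebf1, Scd1, Fads2, Tm7sf2 and Scd2. Srebf1 stood at 10.3, 18.3, 10.3 and 22.3 CPM in OPCs, below every astrocyte library, with a log2 change of -2.65 ± 0.17 (edgeR adjusted p = 5.9e-18). Scd1 stood at 22.4, 46.5, 22.6 and 34.5 CPM (-2.55 ± 0.17) and Fads2 at 73.3, 109, 68.6 and 126 CPM (-2.51 ± 0.11). These are a fatty acid regulator and a pair of desaturases, and Scd2 (-1.98 ± 0.12), at 405, 817, 430.1 and 705 CPM, and Fads1, the delta-5 desaturase (-1.73 ± 0.09), went the same way. Tm7sf2 stood at 8.96, 15.8, 13.4 and 14.3 CPM (-2.45 ± 0.15). Srebf2 stood at 94.7, 121, 115 and 148 CPM in OPCs and differed by -0.35 ± 0.11.

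The median log2 change was -0.75 over the 18 cholesterol enzymes and -1.73 over the 7 fatty acid enzymes, a difference that was not tested. The 4 desaturases lay at or below the latter median, and Fasn, Acaca and Elovl6 nearer to 0 than the former. Hmgcs1 stood at 302, 621, 300.3 and 426 CPM in OPCs (-1.36 ± 0.14) and Sqle at 113, 197, 119 and 177 (-0.53 ± 0.11). Msmo1 stood at 180.0, 211, 186 and 205 CPM (-1.47 ± 0.13). Of the entry enzymes of the other pathway, Fasn stood at 62.5, 119, 69.6 and 138 CPM (-0.48 ± 0.10) and Acaca at 140.4, 77.5, 148 and 61.9 CPM (-0.35 ± 0.10), both overlapping astrocytes. Scap stood at 21.2, 33.1, 22.02 and 40.7 and Insig1 at 91.6, 92.3, 76.3 and 99.6 CPM. The astrocyte markers summed to 6.39% of their astrocyte mean in OPCs, and Srebf1 there was 13.9% to 23.9% of its astrocyte level. Elovl6 alone was higher in OPCs at the adjusted p, at 154, 144, 157 and 152 CPM against 85.4, 93.1, 94.7 and 95.1 in astrocytes, and its groups did not overlap (log2 change 0.54 ± 0.14, edgeR adjusted p = 7.7e-04).

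Oligodendrocytes were compared with OPCs, their precursors. Only Scd1 was called, and it was lower, where 6.58% of all genes were called higher and 16.3% lower. At an adjusted p under 0.05 without a limit on size, 10 members were higher and 2 lower (20.1% and 27.3% of all genes), with medians of 0.09 over the members and -0.12 over all genes. Without TMM scaling the median of all genes shifted to -0.29 and the split became 6 higher and 6 lower, so directions here are relative to the scaling. Of the 10, 9 were cholesterol enzymes and 1 was Fasn. For 4 members no libraries overlapped, Ebp and Fdft1 higher (7.78% of all genes) and Fads2 and Sc5d lower (21.2%).

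**Figure D3:**
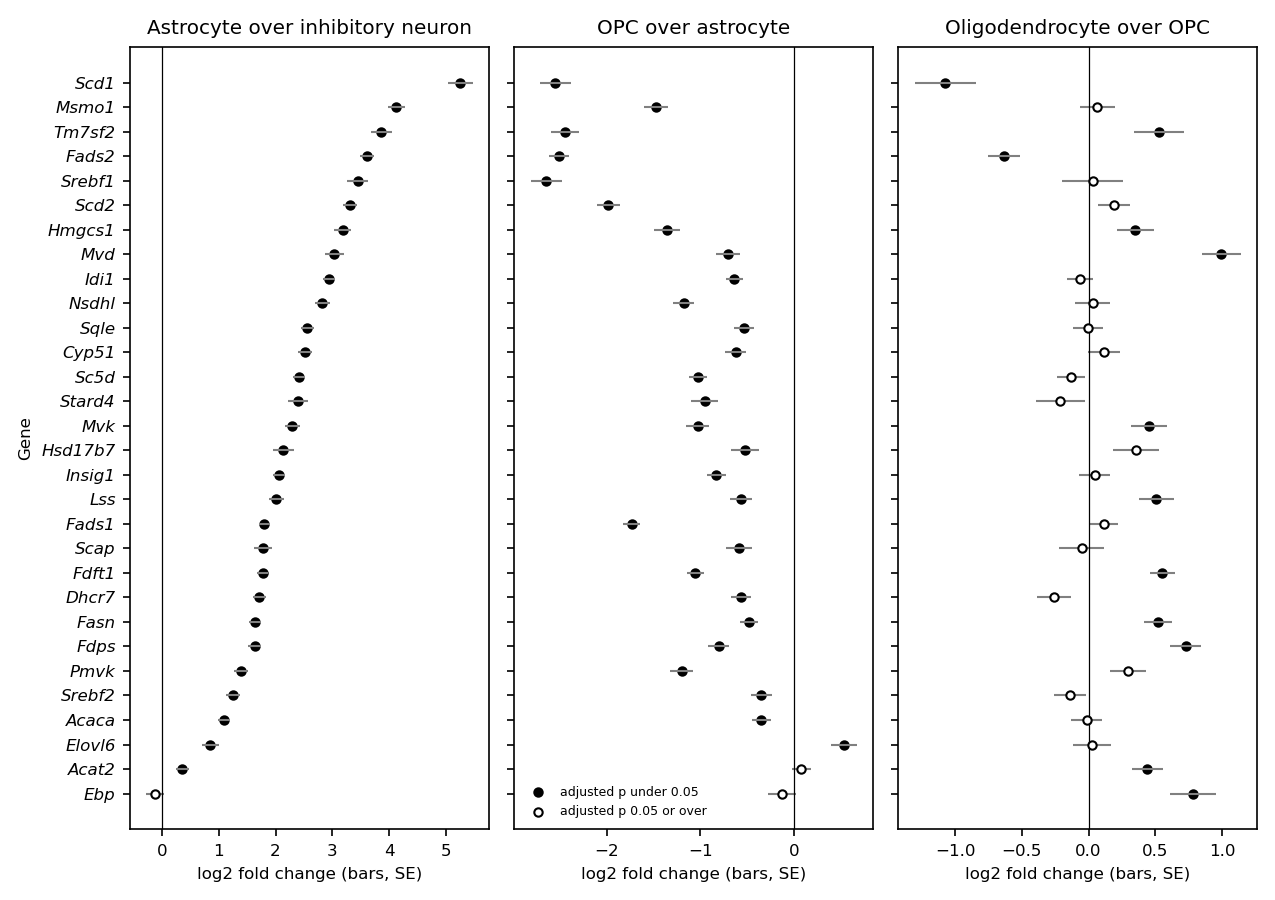
Log2 fold change (points) with its SE (bars) of the 30 genes in 3 comparisons between cell types, in the order of the first; filled points passed an adjusted p under 0.05, and each panel has its own axis. The panels show 29 of 30 genes right of 0 between astrocytes and inhibitory neurons, 27 filled points left of 0 between OPCs and astrocytes, and values on both sides of 0 between oligodendrocytes and OPCs.

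Mvd, the decarboxylase that ends the mevalonate steps (chr8:122433601-122443422, minus strand), stood at 47.4, 69.7, 49.96 and 94.8 CPM in oligodendrocytes and 28.7, 44.4, 24.9 and 50.2 in OPCs. It was higher in each library, by a log2 change of 0.995 ± 0.14 (edgeR adjusted p = 1.5e-07), just under the size limit. Ebp stood at 34.02, 29.4, 30.8 and 34.2 CPM in oligodendrocytes and 21.7, 23.4, 18.1 and 25.8 in OPCs, without overlap (0.78 ± 0.17, edgeR adjusted p = 2.0e-04). Fdps, which makes farnesyl diphosphate, stood at 208, 317, 191 and 399 and 139, 244, 137 and 227 CPM (0.73 ± 0.12, edgeR adjusted p = 9.6e-07).

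Scd1 and Fads2 went the other way. Scd1 stood at 12.4, 24.5, 6.24 and 16.7 CPM in oligodendrocytes, from 36, 20, 32 and 19 UMIs, against 22.4, 46.5, 22.6 and 34.5 in OPCs (-1.07 ± 0.23, edgeR adjusted p = 1.2e-04). Without mutant replicate 1 its log2 change was -0.77, under the size limit. Fads2 stood at 51.9, 64.8, 38.8 and 57.1 CPM, below every OPC library (-0.63 ± 0.12). Hmgcs1 and Fasn were higher by 0.35 ± 0.14 and 0.52 ± 0.10, and in oligodendrocytes Hmgcs1 stood at 409, 533, 366 and 502 CPM and Fasn at 94.2, 142, 90.4 and 151 CPM. Acaca, Scd2, Sqle, Srebf1, Srebf2, Scap and Insig1 did not pass, with log2 changes from -0.14 to 0.19. In oligodendrocytes Scd2 stood at 508, 706, 488 and 593 CPM, Sqle at 118, 124, 121 and 152 and Acaca at 129.9, 68.5, 117 and 64.96. The regulators Srebf1, Srebf2, Scap and Insig1 ranged over 9.17 to 18.4, 83.2 to 126, 19.5 to 35.99 and 73.4 to 90.05 CPM. The OPC markers summed to 1573 to 2132 CPM in oligodendrocytes, 24.7% of their OPC mean, and their part in these values was not tested.

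Oligodendrocytes against astrocytes gave 11 members called lower and 0 higher, where 22% of all genes were called lower and 11.8% higher. The medians were -0.67 over the members and -0.09 over all genes. At the adjusted p alone 22 were lower and 3 higher (33.3% and 27.4% of all genes), and for 19 no libraries overlapped, 16 lower and 3 higher (24.7% and 15.9%). Scd1 (-3.62 ± 0.21), Fads2 (-3.14 ± 0.12), Srebf1 (-2.62 ± 0.20), Tm7sf2 (-1.92 ± 0.17) and Scd2 (-1.79 ± 0.12) led. Ebp (0.66 ± 0.16), Elovl6 (0.56 ± 0.14) and Acat2 (0.52 ± 0.11) were higher in oligodendrocytes at the adjusted p, and are those 3. Tm7sf2 stood at 14.4, 22.02, 12.5 and 23.7 CPM in oligodendrocytes. This comparison shares its sums with the previous 2.

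The companion list holds 50 further genes of the pathway, of which 49 were tested. Against inhibitory neurons, 23 were called higher in astrocytes and 2 lower, where 24.6% and 17.5% of all genes were. The list of sterol efflux, storage, transport and turnover gave 8 of the 23, that of further elongases, desaturases and myelin lipid enzymes 8, SREBP processing and sterol sensing 4, acetyl-CoA and NADPH supply 3 and the isoprenoid branch 0. Lcat, the enzyme that esterifies sterol on lipoproteins, gave 6.97 ± 0.27 and Nr1h3, the sterol-sensing receptor LXR alpha, 4.49 ± 0.58, the latter against inhibitory neurons at a mean of 0.173 CPM. Against excitatory neurons 23 were higher and 2 lower (20.3% and 15.9% of all genes), led by Lcat (5.16 ± 0.21) and Fads6 (3.31 ± 0.30). Of the 7 genes of the isoprenoid branch, which leaves the pathway at farnesyl diphosphate, 1 was called lower against inhibitory neurons.

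The companions with the largest differences in the oligodendrocyte lineage included genes of myelin lipids. Of the 14 further elongases, desaturases and myelin lipid enzymes, 4 were called higher and 2 lower in oligodendrocytes against OPCs, and 4 higher and 6 lower in OPCs against astrocytes. Between oligodendrocytes and OPCs, 6 of 49 were called higher and 4 lower (6.58% and 16.3% of all genes), led by Apod, a lipid carrier (4.15 ± 0.44), and Fa2h, which makes the hydroxy fatty acids of myelin (3.54 ± 0.20). Between OPCs and astrocytes 5 were higher and 14 lower (13.1% and 15.8% of all genes), led by Lcat (-5.86 ± 0.22) and Ugt8a, which makes galactosylceramide (4.34 ± 0.22). Between oligodendrocytes and astrocytes 9 were higher and 15 lower (11.8% and 22% of all genes), led by Fa2h (7.80 ± 0.25) and Ugt8a (6.98 ± 0.24).

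Levels also varied within a type. Among the 6 non-dividing astrocyte clusters the members summed to 4569.9 to 8275 CPM, and the clusters nearly restricted to replicate 1 and to replicate 2 had the highest values, 7333 and 8275. The lowest, led by Hgf and Gfap, had Scd1 at 29.3 CPM, against 184 and 196 in those 2. Among the OPC clusters the members summed to 2506 to 3810 CPM, and the one nearly restricted to replicate 1 had 2667. Among the excitatory clusters they summed to 1450.3 to 1705 CPM, and among the inhibitory clusters to 954 to 1571. Cells are no replicates, so these are descriptions.

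Replicate 2 libraries had higher levels of the members in both genotypes. The median log2 difference between replicate 2 and replicate 1 was 0.29 over the members in astrocytes, 0.60 in OPCs, 0.41 in oligodendrocytes, 0.31 in excitatory and 0.47 in inhibitory neurons, while the median over all genes lay between -0.04 and 0.01. Between 4 and 8 members per type were lower in replicate 2. Acaca was among them in all 5 types (-1.46 in astrocytes, -0.85 in oligodendrocytes). Hsd17b7 was lower by -0.51 in OPCs and -0.98 in oligodendrocytes, where control replicate 2 held 9 of its UMIs. Above 0.5 lay 7 members in astrocytes, 17 in OPCs, 10 in oligodendrocytes, 9 in excitatory and 15 in inhibitory neurons. In that order, 19.7%, 17.5%, 16.2%, 19.0% and 20.4% of all genes did. Below -0.5 lay 1, 2, 2, 1 and 1 members, and 27.5%, 26.6%, 25.3%, 28.8% and 30.8% of all genes. The part of the software versions or of the mitochondrial share in these shifts was not tested.

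The genotypes were compared within each of the 8 types, on sums of 2 control and 2 mutant libraries. None of the 30 genes passed an adjusted p under 0.05 in any type (edgeR), and 0 of all genes did (0%), while 6 to 26 genes per type had an unadjusted p under 0.05. Libraries of the same replicate number deviated together, so the replicate was also fitted as a block. With the replicate block 9 genes passed in astrocytes, 12 in OPCs, 13 in oligodendrocytes, 9 in excitatory neurons, 8 in dividing OPCs and 20 in dividing inhibitory neurons, which is 0.0578%, 0.0905%, 0.123%, 0.0695%, 0.0696% and 0.166% of those tested, and 0 in dividing astrocytes and inhibitory neurons. None of them was a member.

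The members' median log2 change with the replicate block, mutant over control, was 0.09 in astrocytes, -0.07 in OPCs, -0.08 in oligodendrocytes, -0.04 in excitatory and -0.06 in inhibitory neurons. The median over all genes lay within 0.02 of 0 in these types, and the median SE of a member was 0.15 to 0.21. In astrocytes 15 of 30 members were higher in both replicates and 3 lower in both, against 23.2% and 24.1% of all genes. In oligodendrocytes 7 were higher in both and 12 lower in both, against 24.6% and 25.4%. OPCs had 7 and 8 (24.1% and 21.9%), dividing OPCs 4 and 13 (23% and 24%), excitatory neurons 6 and 9 (22% and 24.6%), inhibitory neurons 6 and 12 (21.2% and 29.3%), dividing astrocytes 11 and 5 (24.7% and 24.6%) and dividing inhibitory neurons 10 and 8 (22.3% and 27.3%). Genes of one library are not independent, and a p over the threshold does not show that the genotypes are alike.

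**Figure D4:**
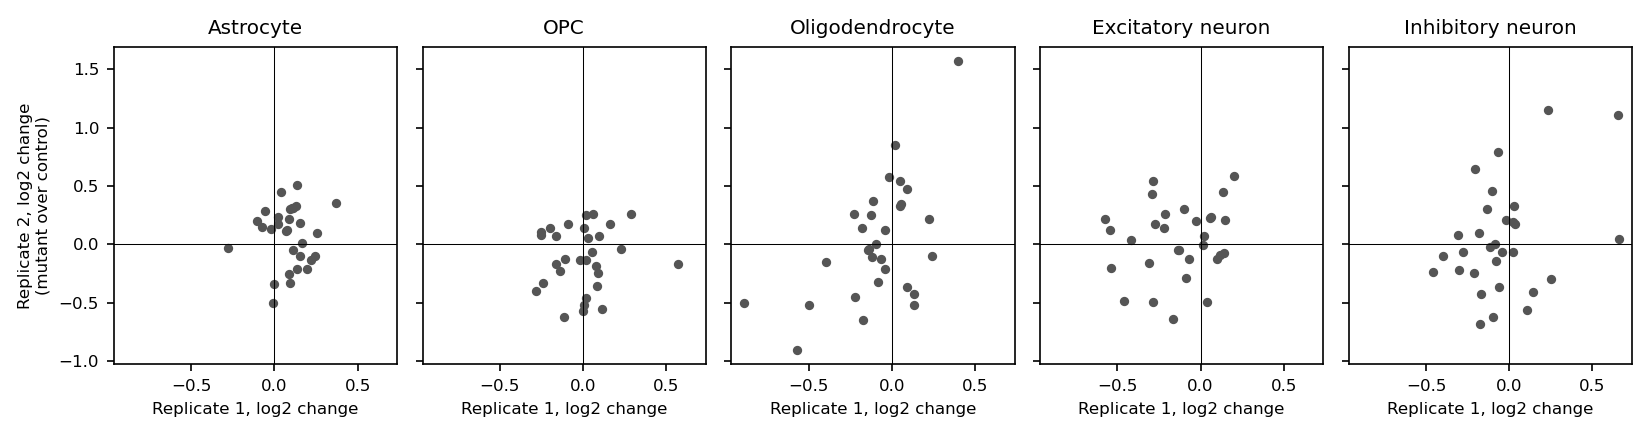
Log2 change, mutant over control, of each of the 30 genes in replicate 2 (vertical) against replicate 1 (horizontal), in 5 cell types, from CPM with 0.5 UMIs added. Points lie on both sides of 0 on each axis in every panel and none of the genes passed the adjusted p.

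At an unadjusted p under 0.05 with the replicate block (edgeR), the members counted 2 in astrocytes, 1 in dividing astrocytes, 1 in OPCs, 2 in dividing OPCs, 3 in oligodendrocytes, and 1 each in excitatory, inhibitory and dividing inhibitory neurons. In that order, 3.78%, 4.33%, 2.82%, 3.72%, 4.42%, 3.67%, 2.84% and 3.31% of all genes did. Of the members, Scd1 in oligodendrocytes gave a blocked log2 change of -0.78 ± 0.38, Dhcr7 in astrocytes 0.32 ± 0.15 and Tm7sf2 in dividing astrocytes 0.41 ± 0.19. Cyp51 gave -0.37 ± 0.18 in OPCs and -0.37 ± 0.17 in dividing OPCs, and Pmvk -0.44 ± 0.21 in dividing OPCs. Stard4 in inhibitory neurons was higher in the mutant libraries, with a blocked log2 change of 0.84, the largest of any member in any type. Scd2 in dividing inhibitory neurons was also among them. The others with low p-values, chosen after their values were seen, follow in more detail. Hmgcs1 in excitatory neurons, at 162, 152, 119 and 108 CPM, was lower in the mutant library of each pair, by log2 changes of -0.46 in replicate 1 and -0.49 in replicate 2. With the replicate block its log2 change was -0.47 ± 0.17 (edgeR adjusted p = 0.76). Its log2 change with the block was below 0 in all 8 types, from -0.47 to -0.10, but the types share 4 libraries. The excitatory class is made of 3 clusters in unequal shares. The cluster led by Neurod6, with the highest Hmgcs1, held 31.2%, 5.26%, 17.9% and 4.47% of its cells in the 4 libraries. Hmgcs1 stood there at 288, 321, 142 and 238 CPM, in the Neurod1 cluster at 96.8, 87.5, 88.6 and 83.5 CPM and in the Eomes cluster at 144, 186, 139.8 and 121 CPM. It was lower in the mutant library of each pair in each cluster, by differing and in part small amounts, and the part of the unequal shares was not tested. In replicate 2 the Neurod6 cluster rests on 12 control and 11 mutant cells, with 30 and 24 UMIs of Hmgcs1. Without the Eomes cluster the blocked log2 change was -0.54 ± 0.20 (edgeR adjusted p = 0.48).

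In oligodendrocytes Pmvk, which phosphorylates mevalonate phosphate, stood at 58.8, 88.1, 38.8 and 45.7 CPM. Its log2 change was -0.57 in replicate 1 and -0.90 in replicate 2 and -0.71 ± 0.22 with the replicate block (edgeR adjusted p = 0.29), and in OPCs -0.29 ± 0.16. Hsd17b7, a sterol reductase, gave 0.71 ± 0.28 in oligodendrocytes with the block (edgeR adjusted p = 0.82). Its log2 change was 0.40 in replicate 1 and 1.57 in replicate 2. These values rest on 101, 9, 233 and 38 UMIs, so the larger leans on the 9 of control replicate 2. In astrocytes Tm7sf2 gave 0.37 in replicate 1 and 0.36 in replicate 2, and 0.36 ± 0.15 with the block (unadjusted p from edgeR = 0.017, adjusted p = 1). Srebf1 and Srebf2 in astrocytes gave 0.17 ± 0.14 and 0.18 ± 0.14.

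The genotype change was also compared between types, by an interaction term in edgeR. Neither oligodendrocytes against OPCs nor astrocytes against inhibitory neurons gave a gene at an adjusted p under 0.05 (0 of 15638 each, 0%), with 406 and 232 genes at an unadjusted p under 0.05, of which 0 and 1 were members. The 1 was Stard4, with a difference of -0.76 ± 0.32 on the log2 scale (edgeR adjusted p = 1). Its mutant over control change was the higher in inhibitory neurons.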

How the data were processed

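Single-cell 3′ libraries (Chromium Next GEM v3.1) of 4 samples were deposited by the authors as UMI counts per gene and barcode, not normalized. The submitters' notes name Cell Ranger 3.0 and mm10, and the matrix headers name 7.0.0 (replicate 1) and 5.0.1 (replicate 2). Barcodes were kept from 2000 to 40000 UMIs when they had 1000 or more detected genes and a mitochondrial share no higher than 10%. Clusters (scanpy 1.11.5, 2000 variable genes without members and companions, resolution 1) were named from at least 3 markers. Scrublet called 0.202% to 2.79% of cells per library as doublets, and none was removed in the main analysis. Counts were summed per library and type (at least 20 cells in every library, 12 types fitted together) and tested with edgeR 4.0.16 (quasi-likelihood, TMM, filterByExpr). The fits were also run on simulated counts with a fixed dispersion, that between types with fewer types. This does not measure their error on these data. SEs are the log2 change divided by the square root of F. Libraries of the same number correlated in their deviations from the group means (Pearson's r of 0.764 to 0.897 over genes, 1 value per type). With 2 libraries per group, both pairs give the same r. The numbers were thus taken to pair the libraries, and a replicate block was an alternative. Libraries are samples of 2 per group, and p-values of the genotype test without a block measure the spread between them. With the block, the spread between replicate numbers is taken out first. Little is then left in 4 libraries to measure a gene's own spread, so these p-values lean on variances that edgeR shares among genes. Between types, library is a covariate, so those p-values measure the spread left after library and type are fitted. Members and lists were chosen with earlier results of these data known. Genes named with values are the regulators, the entry and rate-limiting enzymes, the 5 largest differences per comparison of types and, of the companions, the 2 largest per comparison; others were named after their values were seen. CPM were computed from the counts, with no length correction, so levels are compared within a gene. Alternatives were DESeq2 1.42.0, no TMM, other filters, a 5% mitochondrial limit, doublet removal, other clusterings and each library left out.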

Additional observations from a re-analysis of the deposited data

How the results depend on the processing

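Over all alternatives of the comparisons between types, 1954 member values kept their direction and side of the adjusted p, 57 lost it, 17 gained it and 52 turned sign. The causes were not tested. A filter of at least 10 counts in every sum, which left 8 members and 3296 genes to test, called 7, 7, 0, 5 and 5 of the 8 (and 789, 590, 293, 282 and 486 of the 3296) for astrocytes over inhibitory neurons, astrocytes over excitatory neurons, oligodendrocytes over OPCs, OPCs over astrocytes and oligodendrocytes over astrocytes. For oligodendrocytes over OPCs, 2 members (1 higher, 1 lower) were called at resolution 2 (7.09% of all genes higher, 19.1% lower) and in the mutant libraries alone (6.11% and 14.4%), 0 in the control libraries alone (5.13% and 11.3%), and 0 to 2 with a library left out (0 without mutant replicate 1, and 2 without control replicate 1 or control replicate 2, with 6.13% to 6.92% of all genes higher and 13.9% to 15.7% lower). For astrocyte over excitatory neuron, log2 changes of members near 0 turned under Eomes cluster left out for Elovl6 (-0.38). For astrocyte over inhibitory neuron, log2 changes of members near 0 turned under cluster resolution of 2 for Ebp (0.12), under control libraries only for Ebp (0.0407), and with a library left out ranged across 0 for Ebp (-0.31 to 0.21). For OPC over astrocyte, log2 changes of members near 0 turned under cluster resolution of 2 for Acat2 (-0.0383), under mutant libraries only for Acat2 (-0.0144), under no TMM scaling for Ebp (0.0587), under mitochondrial limit of 5% for Ebp (0.0442), and with a library left out ranged across 0 for Ebp (-0.29 to 0.00434). For oligodendrocyte over OPC, log2 changes of members near 0 turned under no TMM scaling for Cyp51 (-0.055), Elovl6 (-0.14), Fads1 (-0.0545), Insig1 (-0.12), Msmo1 (-0.11), Nsdhl (-0.14) and Srebf1 (-0.14), under at least 10 counts in every sum for Cyp51 (-0.0733), Fads1 (-0.0716) and Msmo1 (-0.11), under DESeq2 for Elovl6 (-0.0102) and Srebf1 (-0.00308), under no filter on low counts for Elovl6 (-0.00753), under mutant libraries only for Elovl6 (-0.0353), Sqle (0.0876) and Srebf1 (-0.28), under control libraries only for Hsd17b7 (-0.00571), Insig1 (-0.00956), Msmo1 (-0.0567), Nsdhl (-0.25) and Srebf2 (0.0447), under members kept for clustering for Insig1 (-0.0082), Nsdhl (-0.0186) and Srebf1 (-0.11), under highest doublet scores removed for Msmo1 (-0.0293), Nsdhl (-0.064) and Srebf1 (-0.0855), under cluster resolution of 2 for Sqle (0.0302) and Srebf1 (-0.20), and with a library left out ranged across 0 for Acaca (-0.0955 to 0.085), Idi1 (-0.0836 to 0.0114), Nsdhl (-0.0591 to 0.18), Scap (-0.0827 to 0.00172), Sqle (-0.0644 to 0.13), Srebf1 (-0.12 to 0.18). For oligodendrocyte over astrocyte, log2 changes of members near 0 turned under no filter on low counts for Fasn (-0.0116), under mutant libraries only for Fasn (-0.0524), under control libraries only for Lss (0.0816), and with a library left out ranged across 0 for Fasn (-0.0186 to 0.11), Lss (-0.14 to 0.0862).

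For the genotype, the test without a block called 0 genes in each type. The replicate block called 9 in astrocytes, 12 in OPCs, 8 in dividing OPCs, 13 in oligodendrocytes, 9 in excitatory and 20 in dividing inhibitory neurons, and changed no call of a member. The block with a 5% mitochondrial limit called 10, 17, 6, 3, 24 and 33 in astrocytes, dividing astrocytes, OPCs, dividing OPCs, excitatory and inhibitory neurons. With the Eomes cluster left out, chosen after seeing the data, the block called 31 in excitatory neurons and 9, 12, 8, 13 and 20 in the other types as listed. Without a filter on low counts 8 genes were called in oligodendrocytes and 8 in dividing inhibitory neurons. The interaction tests called 0 to 1 gene (oligodendrocytes against OPCs) and 0 to 2 genes (astrocytes against inhibitory neurons) with a library left out. Under the 5% mitochondrial limit oligodendrocytes fell below 20 cells in a library and gave no value, and comparisons with committed precursors were not run. Depth limits the neuronal values of Scd1 and Tm7sf2, and the inhibitory values of Srebf1 and Scap, which rest on few UMIs. With at least 10 counts in every sum, 27 of the 30 members could be tested for genotype in inhibitory neurons.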
